A study of Medicago truncatula with 6 samples.

Results

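What changes in root hairs of Medicago truncatula between 4 h and 20 h of treatment with Nod factors (NF) is described here, from 2 libraries at each time. NF are lipochitooligosaccharides, the signals that nitrogen-fixing rhizobia release and that legume roots perceive. The comparison takes the libraries NF 20 h replicates 1 and 2 against NF 4 h replicates 1 and 2, paired by replicate number. It holds every gene with a mean of at least 1 count per 1000000 counted pairs (CPM) over these 4 libraries, which are 16979 of the 50897 genes listed. At this limit the last gene inside was Medtr8g073540, at a mean of 1.00023 CPM, and the first outside was Medtr2g093010, at 0.99994 CPM. All groups are wild type A17 seedlings that were 5 days old when their roots were cut, and all libraries come from isolated root hairs of root segments without the tip. NF 4 h and NF 20 h differ in how long the roots had been in contact with the NF solution, while the control received water. Root hairs of many plants were pooled for each library, so the spread between libraries is that between pools. Control replicate 2 is the single control library analysed, its title carries 4 h, and no water treatment of 20 h is among the groups. Time since the solution was added and duration of the NF signal thus cannot be told apart.

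Root hairs are the cells through which rhizobia enter most legume roots. NF are perceived by receptor kinases with LysM domains, among them NFP and LYK3, and the signal passes through the receptor kinase DMI2 to calcium oscillations in the nucleus. The kinase DMI3 reads these oscillations and acts with IPD3 on a set of transcription factors, NSP1, NSP2, NIN, ERN1 and the NF-Y subunits among them, which switch on genes for infection and for the early nodulins. The hair first swells, then curls around the bacteria and forms an infection thread, which calls for new wall material, membrane and ions. The data below are levels of RNA, and a lower level in bulk root hairs can mean less RNA per cell or fewer cells of a type, which cannot be told apart.

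The 4 NF libraries held between 39199411 and 47302574 counted pairs, and the control library 45591207. A count of 3 pairs corresponds to between 0.0634 and 0.0765 CPM. The stele marker SUNN (Medtr4g070970) had between 0 and 7 counts per library. Of 1339 orthologs of Arabidopsis root hair genes, between 1237 and 1257 had counts in each library. No library stood apart in these measures.

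In the paired fit, 1670 of 16979 genes (9.84%) were called at an adjusted p under 0.05, 870 of them higher at 20 h than at 4 h (5.12% of the genes tested) and 800 lower (4.71%). The balance of directions depends on the scaling, with 933 higher and 1024 lower under TMM, 1039 and 1183 under DESeq2 size factors in edgeR, and 607 and 697 in DESeq2 with the block. The median change of the called genes was 1.70-fold upward and 1.66-fold downward. Changes of at least 2-fold were found for 274 higher and 204 lower genes, and of at least 8-fold for 30 higher and 3 lower genes. Of the called genes, 78 higher and 49 lower had a mean under 1 CPM at the lower time and passed the limit of 1 CPM only through the time at which they were high, so they had to differ. They include 25 of the 30 higher and 2 of the 3 lower genes with changes of at least 8-fold. The libraries of the 2 times did not overlap for 784 of the 870 higher genes and for 760 of the 800 lower genes, whereas over all genes tested this was so for 39.6%, with 22.5% above and 17.1% below. The call rests on the pairing of the libraries by replicate number. With no replicate block 11 genes were called (0.0648%), with 1969 genes at an unadjusted p under 0.05. All 1670 changes kept their sign, which lends the calls no support, since the same 4 libraries enter both fits. When a single library was left out, and with it the block, the calls were 68 without NF 4 h replicate 1, 12 without NF 4 h replicate 2, 1 without NF 20 h replicate 1 and 47 without NF 20 h replicate 2. DESeq2 called 1304 genes with the block and 756 without it, so each adjusted p below is given with and without the block.

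**Figure D1:**
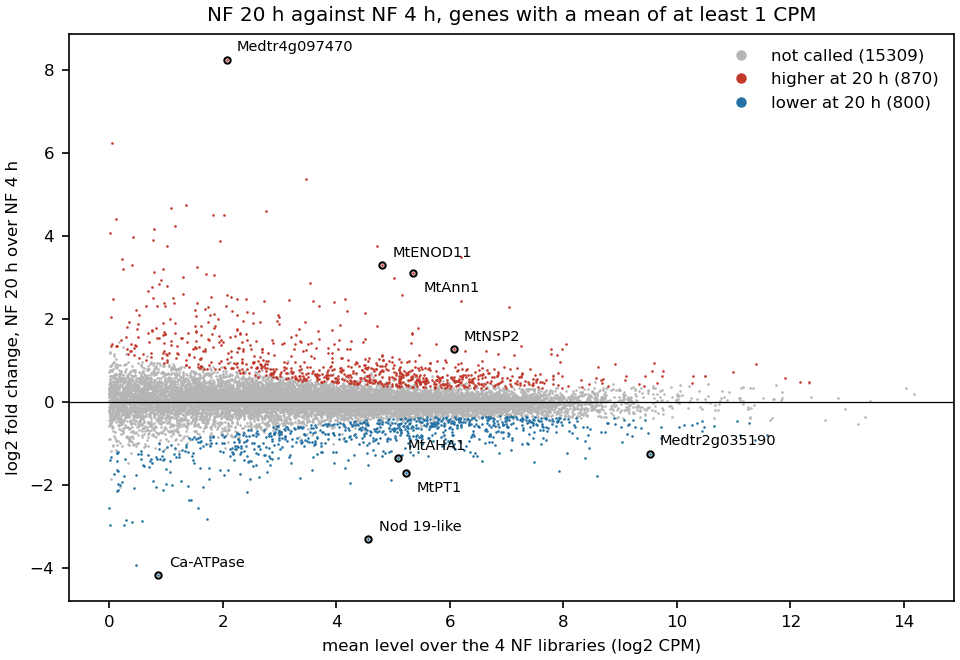
Log2 fold change of NF 20 h over NF 4 h (vertical axis) against the mean level over the 4 NF libraries (horizontal axis, log2 CPM) for the 16979 genes tested, with the 870 genes called higher in red and the 800 called lower in blue. The largest increases lie at low mean levels and reach a log2 fold change of 8.26, while the largest decrease is -4.16.

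Set against the control library, the called genes fell into a few patterns, given here as a description at a 2-fold limit on the CPM + 0.1 scale and with no test. Among the 870 genes that were higher at 20 h, 112 were already above the control at 4 h and went further from it, and 145 left the control only after 4 h. A further 49 were below the control at 4 h and back within 2-fold of it at 20 h, and 5 went from below it to above it. The last pattern includes an endo-1,4-beta-glucanase gene, Medtr8g099410, named after its values were seen, with 4.48 and 2.65 CPM at 4 h, 64.0 and 34.7 CPM at 20 h and 8.47 CPM in the control. Among the 800 genes that were lower at 20 h, 186 were near the control at 4 h and below it at 20 h. Of the genes that were above the control at 4 h and lower at 20 h, 56 came back within 2-fold of the control, 51 stayed above it and 4 ended below it. Most called genes, 556 of the higher and 495 of the lower, stayed within 2-fold of the control at both times.

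**Figure D2:**
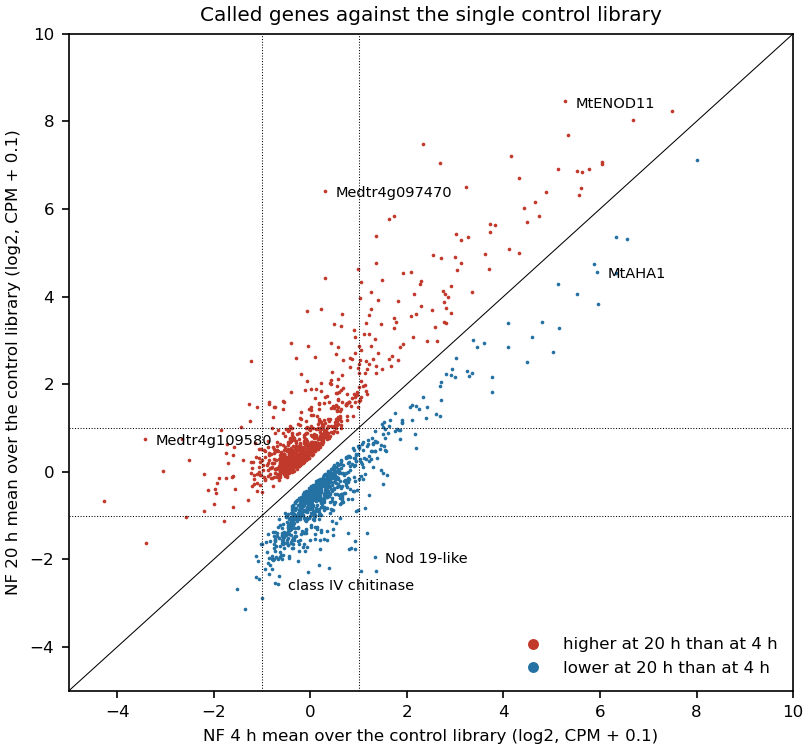
Mean level of each called gene over the control library at 4 h (horizontal axis) and at 20 h (vertical axis), both as log2 of CPM + 0.1, red for genes higher at 20 h and blue for genes lower. Dotted lines mark the 2-fold limit and the diagonal marks equal levels. MtENOD11 lies far above the diagonal at the top right, MtAHA1 below it, and Medtr4g097470 leaves the control only at 20 h.

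Among the perception and signaling genes NFP rose and MtLYM2 fell. Of 11 receptors and common signaling genes, all of which reached 1 CPM, 1 was called higher and 1 lower (18.2% beside 9.84% of all genes), 7 had an unadjusted p under 0.05 beside 3748 of all 16979, and the median log2 fold change was -0.02 beside 0.03 over all genes tested. NFP (Medtr5g019040), the LysM receptor required for NF perception, had 91.9 and 76.3 CPM at 4 h, 128 and 108 CPM at 20 h and 88.8 CPM in the control. Both NF 20 h libraries of NFP lay above both NF 4 h libraries (log2 fold change 0.49 ± 0.09 (SE), edgeR adjusted p = 0.0114 with the block and 0.317 without). MtLYM2 (Medtr4g094730), a LysM protein attached to the membrane, had 210.4 and 231 CPM at 4 h, 148 and 155 CPM at 20 h and 311 CPM in the control. The libraries of MtLYM2 did not overlap, and its lowest values were those at 20 h (log2 fold change -0.54 ± 0.09 (SE), edgeR adjusted p = 0.00845 with the block and 0.177 without).

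The other members were not called. DMI2 (Medtr5g030920) had 596 and 503 CPM at 4 h, against 595 and 487 CPM at 20 h, with the times overlapping (log2 fold change -0.02, edgeR adjusted p = 0.925 with the block and 0.992 without). DMI3 (Medtr8g043970) had 211 and 210.5 CPM at 4 h, against 215 and 223 CPM at 20 h, a log2 fold change of 0.06. IPD3 (Medtr5g026850) had a log2 fold change of 0.07 and LYK3 (Medtr5g086130) of 0.12. MtLYK10 (Medtr5g033490), at 31.5 and 17.6 CPM at 4 h, 37.6 and 27.7 CPM at 20 h and 0.307 CPM in the control, had an estimate of 0.45 that did not pass the test (edgeR adjusted p = 0.0624 with the block and 0.782 without), and its libraries overlapped between the times. Estimates for the other LysM receptor-like kinases were -0.41 for MtLYR2 (Medtr1g021845), -0.27 for MtLYR4 (Medtr5g085790) and -0.69 for MtLYR6 (Medtr7g079320). That of the ubiquitin ligase MtPUB1 (Medtr5g083030) was -0.27.

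The nodulation transcription factors went in different directions. Of 10 genes, 3 were called higher at 20 h and 2 lower (50% called beside 9.84% of all genes), with a median log2 fold change of -0.00065. Of these 10 genes, 8 carry an annotation here only through the study's tables of NF-responding genes, which were chosen on these libraries. Of the other 2, 1 was called higher and 0 lower. MtNSP2 (Medtr3g072710), a GRAS factor that acts below calcium oscillations, had 40.5 and 37.7 CPM at 4 h, 105 and 85.4 CPM at 20 h and 38.8 CPM in the control. The NF 4 h values of MtNSP2 thus lay at the control value, and both NF 20 h values stood well above them (log2 fold change 1.28 ± 0.10 (SE), edgeR adjusted p = 0.000614 with the block and 0.0797 without). MtNSP1 (Medtr8g020840), its GRAS partner, had 62.8 and 48.7 CPM at 4 h, 42.6 and 39.9 CPM at 20 h and 6.78 CPM in the control. The NSP1 level was highest at 4 h and both NF 20 h values were below it while still above the control (log2 fold change -0.42 ± 0.10 (SE), edgeR adjusted p = 0.0391 with the block and 0.382 without).

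MtNIN (Medtr5g099060), the regulator required for infection and nodule formation, had 27.9 and 24.8 CPM at 4 h, 46.3 and 40.8 CPM at 20 h and 4.34 CPM in the control. The MtNIN values were lowest in the control and highest at 20 h, with no overlap (log2 fold change 0.72 ± 0.09 (SE), edgeR adjusted p = 0.00355 with the block and 0.127 without). MtERN1 (Medtr7g085810), an AP2 factor that activates the early nodulin ENOD11, had 87.7 and 85.1 CPM at 4 h, 128 and 136 CPM at 20 h and 43.1 CPM in the control. The same order held for MtERN1, with close replicates at each time (log2 fold change 0.61 ± 0.09 (SE), edgeR adjusted p = 0.00533 with the block and 0.128 without). MtNF-YB7 (Medtr8g091720), a subunit of a CCAAT-binding factor, had 13.5 and 13.4 CPM at 4 h, 3.96 and 6.004 CPM at 20 h and 1.996 CPM in the control. Both NF 4 h values of MtNF-YB7 were high and both NF 20 h values had come down toward the control (log2 fold change -1.45 ± 0.18 (SE), edgeR adjusted p = 0.002796 with the block and 0.109 without).

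The remaining factors were not called. MtNF-YA1 (Medtr1g056530) had 19.4 and 6.17 CPM at 4 h, 11.99 and 10.02 CPM at 20 h and 0 CPM in the control, and its NF 20 h values fell between the NF 4 h values (log2 fold change -0.04 ± 0.29 (SE), edgeR adjusted p = 0.962 with the block and 0.957 without). Estimates were 0.04 for MtNF-YA2 (Medtr7g106450), -0.28 for MtNF-YC2 (Medtr7g113680), -0.05 for MtERN2 (Medtr6g029180) and 0.19 for MtERN3 (Medtr8g085960).

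**Figure D3:**
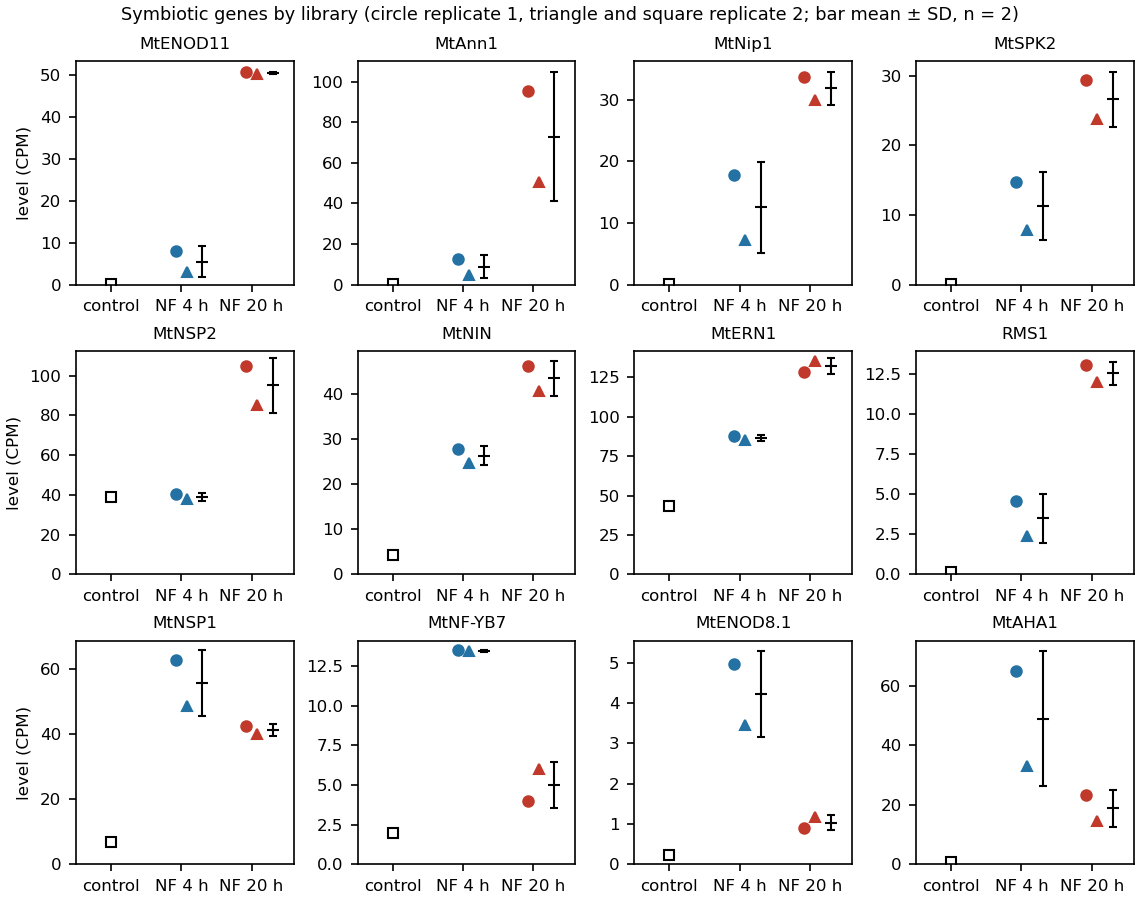
Levels in CPM (vertical axis, from 0) of 12 named genes in the control library (square), NF 4 h (blue) and NF 20 h (red), with circles for replicate 1, triangles for replicate 2 and bars for the mean ± SD (n = 2). The upper 8 genes are higher in both NF 20 h libraries than in both NF 4 h libraries, and the lower 4 are lower.

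Many early nodulins and infection genes were higher at 20 h than at 4 h. Of 25 genes listed 24 reached 1 CPM, of which 12 were called higher and 4 lower at 20 h (66.7% called beside 9.84% of all genes). MtRip10 (Medtr7g107500) had 0 counts in all libraries. The median log2 fold change was 0.42 beside 0.03 over all genes tested. Of these 24 genes, 11 carry an annotation here only through the study's tables of NF-responding genes, which were chosen on these libraries. Of the other 13, 5 were called higher and 3 lower, with a median of 0.27.

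MtENOD11 (Medtr3g415670), an early nodulin of the cell wall and a common marker of NF perception, had 8.05 and 2.88 CPM at 4 h, 50.6 and 50.2 CPM at 20 h and 0.0439 CPM in the control. The 20 h values of MtENOD11 were close to each other and stood far above both 4 h values, which differed from each other more (log2 fold change 3.30 ± 0.29 (SE), edgeR adjusted p = 0.000933 with the block and 0.0955 without). MtAnn1 (Medtr8g038210), an annexin that binds calcium and membranes, had 12.7 and 4.85 CPM at 4 h, 95.6 and 50.4 CPM at 20 h and 0.395 CPM in the control. Replicate 1 of MtAnn1 was higher than replicate 2 at each time, and the times did not overlap (log2 fold change 3.12 ± 0.13 (SE), edgeR adjusted p = 0.000121 with the block and 0.119 without). MtENOD12 (Medtr3g415650), a proline-rich early nodulin, rose from 2.65 and 1.35 CPM at 4 h to 4.599 and 3.49 CPM at 20 h (log2 fold change 1.06 ± 0.23 (SE), edgeR adjusted p = 0.0277 with the block and 0.401 without).

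MtNip1 (Medtr8g087710), a member of the aquaporin-like MIP family, had 17.7 and 7.27 CPM at 4 h, 33.7 and 29.98 CPM at 20 h and 0.0219 CPM in the control. Its values were near 0 in the control and highest at 20 h, with no overlap between the times (log2 fold change 1.46 ± 0.23 (SE), edgeR adjusted p = 0.00785 with the block and 0.289 without). MtSPK2 (Medtr8g074920), annotated as a receptor-like kinase of the THESEUS type, had 14.8 and 7.88 CPM at 4 h, 29.4 and 23.8 CPM at 20 h and 0.132 CPM in the control, in the same order (log2 fold change 1.28 ± 0.16 (SE), edgeR adjusted p = 0.00298 with the block and 0.222 without). MtSPK1 (Medtr4g129010), annotated as a tyrosine kinase family protein, had 90.03 and 63.1 CPM at 4 h, 112 and 86.6 CPM at 20 h and 12.4 CPM in the control. In MtSPK1 replicate 2 at 20 h was under replicate 1 at 4 h, so the times overlapped and the call depends on the pairing (log2 fold change 0.38 ± 0.09 (SE), edgeR adjusted p = 0.0369 with the block and 0.679 without).

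MtNPL (Medtr3g086320), the pectate lyase that loosens the wall at infection sites, had 33.98 and 17.4 CPM at 4 h, 52.3 and 33.8 CPM at 20 h and 0.0439 CPM in the control. The times overlapped for MtNPL as well, by the same order of replicates (log2 fold change 0.78 ± 0.11 (SE), edgeR adjusted p = 0.00516 with the block and 0.568 without). ABIL1-like (Medtr7g116710), related to a part of the SCAR/WAVE complex that acts on actin, had 7.47 and 5.61 CPM at 4 h, against 15.5 and 15.7 CPM at 20 h (log2 fold change 1.26 ± 0.15 (SE), edgeR adjusted p = 0.00266 with the block and 0.0997 without). TRICOT-like (Medtr7g107100), annotated as a glutamate carboxypeptidase, had 1.96 and 1.84 CPM at 4 h, against 6.48 and 5.01 CPM at 20 h (log2 fold change 1.59 ± 0.20 (SE), edgeR adjusted p = 0.00309 with the block and 0.0955 without). Neither gene overlapped between the times.

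The genes of this list that faded include MtENOD8.1 (Medtr1g030275), an early nodulin annotated as a GDSL-like lipase, with 4.98 and 3.47 CPM at 4 h, 0.905 and 1.16 CPM at 20 h and 0.219 CPM in the control. Both NF 20 h values of MtENOD8.1 were under both NF 4 h values and remained above the control (log2 fold change -2.01 ± 0.28 (SE), edgeR adjusted p = 0.00447 with the block and 0.0997 without). MtAHA1 (Medtr8g006790), a plasma membrane proton pump, had 65.03 and 32.96 CPM at 4 h, 23.2 and 14.4 CPM at 20 h and 0.702 CPM in the control. The pump was close to absent in the control, highest in NF 4 h replicate 1 and lower in both NF 20 h libraries (log2 fold change -1.34 ± 0.11 (SE), edgeR adjusted p = 0.000746 with the block and 0.247 without).

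Peroxidases named Rip went both ways. MtRip4 (Medtr1g054205) had 4.41 and 4.08 CPM at 4 h, 18.1 and 25.2 CPM at 20 h and 2.22 CPM in the control (log2 fold change 2.33 ± 0.17 (SE), edgeR adjusted p = 0.000614 with the block and 0.0681 without). MtRip6 (Medtr6g008075) had 4.84 and 4.29 CPM at 4 h, 12.8 and 18.5 CPM at 20 h and 2.52 CPM in the control (log2 fold change 1.76 ± 0.19 (SE), edgeR adjusted p = 0.00181 with the block and 0.0902 without). In both the 4 h values were near each other and above the control, and both NF 20 h values lay well above them. MtRip5 (Medtr2g088770) rose from 3.07 and 3.78 CPM at 4 h to 5.62 and 7.93 CPM at 20 h (edgeR adjusted p = 0.0115 with the block and 0.219 without). Falls were called for MtRip7 (Medtr2g029820), from 140.4 and 157 CPM at 4 h to 61.5 and 85.8 CPM at 20 h (log2 fold change -1.03, edgeR adjusted p = 0.00144 with the block and 0.132 without), and for MtRip2 (Medtr1g115900), from 76.95 and 53.6 CPM at 4 h to 35.3 and 39.7 CPM at 20 h (log2 fold change -0.78, edgeR adjusted p = 0.0186 with the block and 0.206 without). The other members did not pass the test. Their estimates were 0.46 for MtRIP1 (Medtr5g074860), -0.42 for MtRip3 (Medtr2g029560), -0.49 for MtRip8 (Medtr4g029170) and -0.05 for MtRip9 (Medtr2g029750). Beyond the peroxidases they were -0.12 for MtVAPYRIN (Medtr6g027840), -0.32 for MtN8 (Medtr1g074410), and 0.14 and 0.27 for the MtCRK29 models Medtr1g021630 and Medtr1g021632, which carry the same name and may be near-identical copies.

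Most of the largest changes of the whole comparison were in genes outside the lists, and they are given as a description. All 8 of the largest increases and 7 of the 8 largest decreases had a mean under 1 CPM at the lower time, so these genes entered the comparison only through the time at which they were high. Medtr4g097470 and Medtr0045s0070, for which no annotation was used here, had the largest increases. Medtr4g097470 had 2 counted pairs over the NF 4 h libraries and 756 over the NF 20 h libraries, a ratio of 349.6 with a 95% exact counting interval of 96.4 to 2892, and 0 in the control. Medtr0045s0070 had 2 pairs at 4 h and 183 at 20 h, a ratio of 84.6 with an interval of 23.1 to 704. Both genes were called with the block and without it (edgeR adjusted p = 0.000121 with the block and 0.0427 without for Medtr4g097470, and edgeR adjusted p = 0.000664 with the block and 0.0427 without for Medtr0045s0070).

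Medtr8g071050, annotated as a transmembrane protein, had 0.877 and 0.153 CPM at 4 h, 21.3 and 21.8 CPM at 20 h and 0.0219 CPM in the control (log2 fold change 5.39 ± 0.39 (SE), edgeR adjusted p = 0.000614 with the block and 0.0797 without). Medtr7g063730, with no annotation used here, had 0.8304 and 0.255 CPM at 4 h, 14.99 and 11.2 CPM at 20 h and 0 CPM in the control (log2 fold change 4.62 ± 0.28 (SE), edgeR adjusted p = 0.000304 with the block and 0.0797 without). Medtr7g033300, annotated as lysine ketoglutarate reductase trans-splicing-like, had 0.507 and 0.179 CPM at 4 h, 8.82 and 6.79 CPM at 20 h and 0.0439 CPM in the control (log2 fold change 4.51 ± 0.29 (SE), edgeR adjusted p = 0.000398 with the block and 0.0797 without). These 3 genes were next to silent in the control, low at 4 h and clearly present at 20 h. Medtr7g011663, annotated as copalyldiphosphate synthase, an enzyme type that opens the gibberellin pathway, had 0.484 and 0.128 CPM at 4 h, 9.102 and 4.57 CPM at 20 h and 0.0219 CPM in the control. Its NF 20 h values differed from each other, yet both stood far above all other libraries (log2 fold change 4.50 ± 0.29 (SE), edgeR adjusted p = 0.000397 with the block and 0.0955 without).

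Medtr7g074220, a hypothetical protein, was at 0.138 and 0.179 CPM at 4 h, 4.19 and 3.996 CPM at 20 h and 0 CPM in the control and was called in both fits (log2 fold change 4.67 ± 0.32 (SE), edgeR adjusted p = 0.000574 with the block and 0.0427 without). Medtr4g109580, with no annotation used here, had 0.231 and 0.128 CPM at 4 h, 5.43 and 4.44 CPM at 20 h and 2.87 CPM in the control. This gene was below the control at 4 h and above it, though within 2-fold, at 20 h, and was again called in both fits (log2 fold change 4.76 ± 0.31 (SE), edgeR adjusted p = 0.000398 with the block and 0.0491 without). A cytochrome P450 gene, Medtr7g103450, had 3.97 and 3.52 CPM at 4 h, 21.9 and 18.6 CPM at 20 h and 0.373 CPM in the control. The order was control below NF 4 h below NF 20 h, with replicates close together (log2 fold change 2.43 ± 0.14 (SE), edgeR adjusted p = 0.000227 with the block and 0.0427 without). Medtr2g084270, a DUF1635 family gene, had 19.1 and 19.4 CPM at 4 h, 59.6 and 63.9 CPM at 20 h and 14.3 CPM in the control, again with a call in both fits (log2 fold change 1.68 ± 0.09 (SE), edgeR adjusted p = 0.000227 with the block and 0.0427 without).

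The largest decrease was that of Medtr6g016470, annotated as a calcium-transporting ATPase, a pump type that removes calcium from the cytosol. Medtr6g016470 had 3.53 and 3.39 CPM at 4 h, 0.191 and 0.1903 CPM at 20 h and 1.29 CPM in the control. The replicates were close at each time, and the 20 h level was below that of the control (log2 fold change -4.16 ± 0.32 (SE), edgeR adjusted p = 0.000614 with the block and 0.0427 without). Medtr4g094550, annotated as a stress up-regulated Nod 19 protein, had 37.9 and 48.01 CPM at 4 h, 4.55 and 4.19 CPM at 20 h and 16.98 CPM in the control. It too was above the control at 4 h and below it at 20 h (log2 fold change -3.29 ± 0.15 (SE), edgeR adjusted p = 0.000131 with the block and 0.0427 without). A ribonuclease T2 gene, Medtr5g040940, had 3.14 and 2.07 CPM at 4 h, 0.238 and 0.106 CPM at 20 h and 1.21 CPM in the control and followed the same course (log2 fold change -3.92 ± 0.35 (SE), edgeR adjusted p = 0.000933 with the block and 0.0843 without).

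The remaining large decreases were in genes with low counts. Medtr8g033090, an F-box gene, had 2.35 and 1.89 CPM at 4 h, against 0.286 and 0.254 CPM at 20 h, and Medtr2g102267, annotated as a coatomer subunit, had 1.98 and 2.68 CPM at 4 h, against 0.3098 and 0.317 CPM at 20 h. Medtr4g091090, a cysteine-rich TM module gene, had 2.08 and 3.21 CPM at 4 h, against 0.357 and 0.359 CPM at 20 h. A CYP94 family P450 gene, Medtr4g054920, had 1.61 and 2.73 CPM at 4 h, against 0.238 and 0.359 CPM at 20 h, and Medtr3g116080, with no annotation used here, had 2.38 and 1.25 CPM at 4 h, against 0.167 and 0.275 CPM at 20 h. In all of them both NF 20 h values were under both NF 4 h values, with log2 fold changes between -2.96 and -2.84, and none was called without the block.

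The lists that follow group genes by function. Except for the families of transporters and redox proteins and the lists of orthologs and legume-specific genes, they were drawn by keywords from the annotation held here, which covers 4964 of the genes tested and comes partly from the study's tables of NF-responding genes. Of these 4964 genes 23.4% were called. The share was 52.2% for the 1162 genes annotated only through the tables of NF-responding genes and 14.6% for the 3802 annotated elsewhere, of which 5.58% were higher and 9.05% lower at 20 h. It was 4.23% for the 12015 genes without annotation. Each keyword list is therefore given with its count among members annotated outside the tables of NF-responding genes, and it is not a complete gene family.

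**Figure D4:**
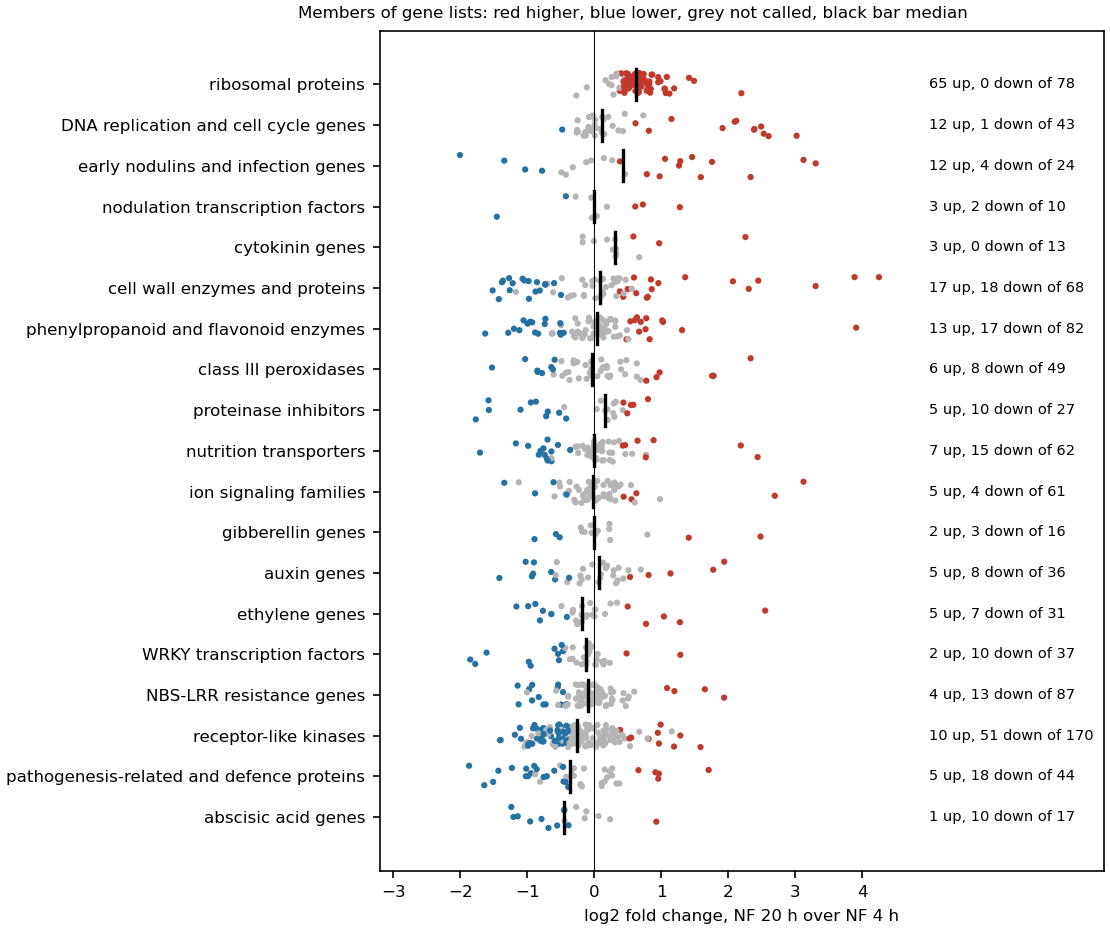
Log2 fold change of NF 20 h over NF 4 h (horizontal axis) for every tested member of 19 gene lists (vertical axis), red when called higher, blue when called lower and grey when not called, with a black bar at the median. Ribosomal protein genes sit almost wholly on the right, and abscisic acid and defence genes lie mostly on the left.

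Genes for ribosomal proteins rose together. Of 79 listed, 78 reached 1 CPM, of which 65 were called higher at 20 h and 0 lower, with a median log2 fold change of 0.61. Estimates were above 0 for 76 of the 78, and in 73 both NF 20 h libraries lay above both NF 4 h libraries. Of the 46 members not taken from the tables of NF-responding genes, 33 were called higher. With no block edgeR called none of the 78, of which 73 had an unadjusted p under 0.05 in the paired fit, and DESeq2 with the block called 60. The summed level of the list was 3289 and 3782 CPM at 4 h, 4841 and 5493 CPM at 20 h and 3897 CPM in the control. Both 20 h sums were above both 4 h sums and above the control, and replicate 2 was higher than replicate 1 at each time.

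The 40S protein gene S3a-1 (Medtr1g103100) had the largest change of the list, with 5.74 and 7.42 CPM at 4 h, 31.9 and 28.1 CPM at 20 h and 22.3 CPM in the control. Its 4 h values were well under the control and its 20 h values above it (log2 fold change 2.19 ± 0.16 (SE), edgeR adjusted p = 0.000614 with the block and 0.0624 without). The 60S genes L18-3 (Medtr1g083460) and L32-1 (Medtr8g085740) were likewise below the control at 4 h and above it at 20 h. L18-3 had 8.81 and 11.4 CPM at 4 h, 27.8 and 28.6 CPM at 20 h and 19.8 CPM in the control (log2 fold change 1.49 ± 0.13 (SE), edgeR adjusted p = 0.000933 with the block and 0.0797 without). L32-1 had 3.97 and 5.13 CPM at 4 h, 11.2 and 12.9 CPM at 20 h and 6.19 CPM in the control (log2 fold change 1.41 ± 0.15 (SE), edgeR adjusted p = 0.00163 with the block and 0.0952 without). The 60S gene L3B (Medtr4g094398) had 3.28 and 5.33 CPM at 4 h, 8.74 and 10.5 CPM at 20 h and 5.97 CPM in the control, again with no overlap between the times (log2 fold change 1.19 ± 0.17 (SE), edgeR adjusted p = 0.005199 with the block and 0.188 without). Over the list, the median level against the control was -0.19 at 4 h and 0.44 at 20 h (log2, CPM + 0.1). Ribosomal genes have near-identical copies, and pairs that fit several transcripts equally well were removed, so single levels are uncertain.

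Several genes of DNA replication also rose. Of 47 genes for DNA replication and the cell cycle 43 reached 1 CPM. Of these 43, 12 were called higher and 1 lower (30.2% beside 9.84% of all genes), with a median log2 fold change of 0.11. The increases were all but 1 in genes from the tables of NF-responding genes, so the choice of members leans toward change. Of the 26 members annotated elsewhere, 1 was called higher and 1 lower, with a median of -0.0045. The summed level was 2660 and 3143 CPM at 4 h and 2614 and 3127 CPM at 20 h, with the times overlapping. The DNA replication factor gene CDT1-like (Medtr1g070170), whose product loads the replicative helicase, had 0.554 and 0.5102 CPM at 4 h, 5.41 and 3.36 CPM at 20 h and 1.43 CPM in the control. It was below the control at 4 h and above it at 20 h (log2 fold change 3.02 ± 0.27 (SE), edgeR adjusted p = 0.000949 with the block and 0.0797 without). A core histone gene, Medtr4g088150, took the same course, with 0.692 and 0.689 CPM at 4 h, 3.62 and 4.86 CPM at 20 h and 2.04 CPM in the control (log2 fold change 2.599 ± 0.25 (SE), edgeR adjusted p = 0.00133 with the block and 0.0797 without). CDT1-like and this histone gene had a mean under 1 CPM at 4 h, passed the limit only through 20 h and thus had to differ.

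The genes for MCM2 (Medtr4g122270) and MCM4 (Medtr4g096700), subunits of that helicase, moved in parallel. MCM2 had 1.61 and 0.995 CPM at 4 h, 9.82 and 5.39 CPM at 20 h and 2.43 CPM in the control (log2 fold change 2.53 ± 0.20 (SE), edgeR adjusted p = 0.000629 with the block and 0.107 without). MCM4 had 1.87 and 1.05 CPM at 4 h, 9.603 and 6.57 CPM at 20 h and 2.698 CPM in the control (log2 fold change 2.49 ± 0.19 (SE), edgeR adjusted p = 0.000629 with the block and 0.0955 without). In both, replicate 1 exceeded replicate 2 at each time and the times did not overlap. The cyclin gene Medtr7g055650 was the member called lower, from 57.1 and 49.5 CPM at 4 h to 38.9 and 37.4 CPM at 20 h (log2 fold change -0.48, edgeR adjusted p = 0.0169 with the block and 0.21999 without).

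**Figure D5:**
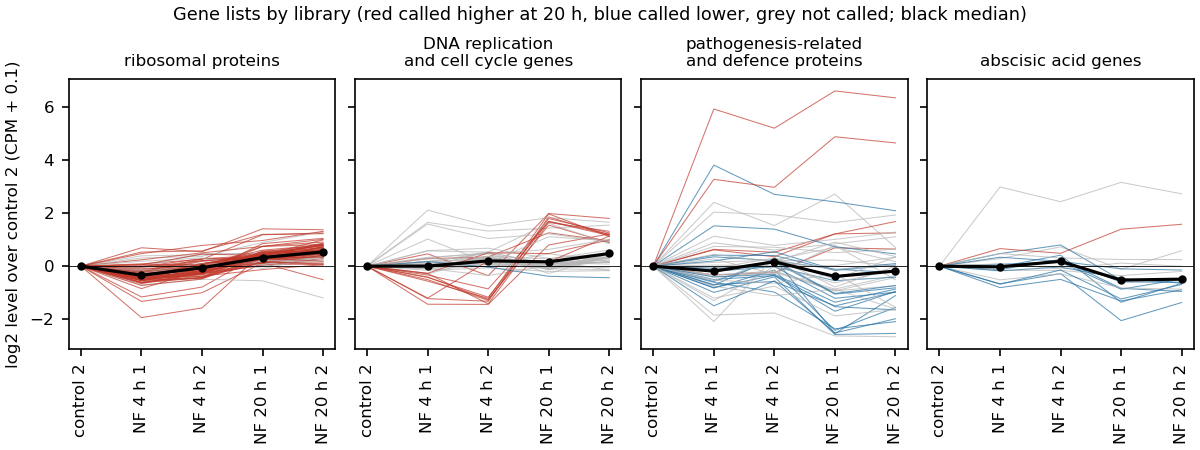
Level of each member of 4 lists in the 5 libraries (horizontal axis) relative to control replicate 2 (vertical axis, log2 of CPM + 0.1), red when called higher at 20 h, blue when called lower, grey when not called, with the median in black. The median of the ribosomal genes lies at -0.19 at 4 h and at 0.44 at 20 h, and the blue lines of the defence and abscisic acid lists go down between NF 4 h and NF 20 h.

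Among hormone genes, most of those for abscisic acid (ABA), a hormone of stress responses, fell. All 17 listed genes reached 1 CPM, and 10 were called lower and 1 higher at 20 h, with a median log2 fold change of -0.45. Of the 14 members from other tables than those of NF-responding genes, 10 were called lower. The summed level of the list was 8375 and 9639 CPM at 4 h, 4897 and 6212 CPM at 20 h and 10331 CPM in the control. Both NF 20 h sums were under all others, with replicate 2 above replicate 1 at each time.

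Medtr2g035190, annotated as ABA-responsive, had 889 and 1163 CPM at 4 h, 340.2 and 546 CPM at 20 h and 1411 CPM in the control. Both values at 20 h were lower than at 4 h and in the control, and replicate 2 exceeded replicate 1 at each time (log2 fold change -1.24 ± 0.11 (SE), edgeR adjusted p = 0.00104 with the block and 0.177 without). The neighbouring identifier Medtr2g035210, with the same annotation, had 598 and 784 CPM at 4 h, 367 and 339 CPM at 20 h and 656 CPM in the control (log2 fold change -0.96 ± 0.13 (SE), edgeR adjusted p = 0.00453 with the block and 0.132 without). Pairs shared by such copies were not counted, so their split is uncertain. Genes annotated as ABA receptors, which bind the hormone and then inhibit phosphatases that repress its signal, fell too. Medtr5g083270 had 165 and 206 CPM at 4 h, 82.4 and 84.4 CPM at 20 h and 119 CPM in the control (log2 fold change -1.14 ± 0.10 (SE), edgeR adjusted p = 0.000933 with the block and 0.0905 without). Medtr1g016480 had 8.58 and 11.7 CPM at 4 h, 3.34 and 5.56 CPM at 20 h and 8.73 CPM in the control (log2 fold change -1.21 ± 0.16 (SE), edgeR adjusted p = 0.00375 with the block and 0.224 without). The member called higher was an ABA response element-binding factor, Medtr7g104480, with 4.91 and 4.34 CPM at 4 h, against 8.22 and 9.37 CPM at 20 h (log2 fold change 0.93 ± 0.17 (SE), edgeR adjusted p = 0.0124 with the block and 0.137 without).

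RMS1 (Medtr3g109610), the carotenoid cleavage dioxygenase of strigolactone synthesis, had 4.57 and 2.398 CPM at 4 h, 13.03 and 11.99 CPM at 20 h and 0.154 CPM in the control. It was barely detected in the control, and its NF 20 h values were close and stood above both NF 4 h values (log2 fold change 1.89 ± 0.21 (SE), edgeR adjusted p = 0.002003 with the block and 0.119 without). Cytokinin genes showed 3 called higher and 0 lower of 13 tested (23.1% beside 9.84% of all genes), with a median of 0.31. All 3 come from the tables of NF-responding genes. Of the 5 members annotated elsewhere 0 were called, with a median of -0.0043. The adenylate isopentenyltransferase gene IPT (Medtr4g117330), which makes cytokinin, had 1.27 and 0.969 CPM at 4 h, 5.81 and 4.86 CPM at 20 h and 0.746 CPM in the control (log2 fold change 2.25 ± 0.22 (SE), edgeR adjusted p = 0.00121 with the block and 0.0797 without). The cytokinin oxidase gene CKX (Medtr4g126160), which breaks it down, had 25.4 and 22.04 CPM at 4 h, 50.9 and 42.1 CPM at 20 h and 35.01 CPM in the control (log2 fold change 0.97 ± 0.09 (SE), edgeR adjusted p = 0.00134 with the block and 0.106 without). Neither overlapped between the times. MtRR11 (Medtr8g038620), a type A response regulator, had 7.89 and 15.1 CPM at 4 h, 11.3 and 23.6 CPM at 20 h and 5.55 CPM in the control. NF 4 h replicate 2 exceeded NF 20 h replicate 1, so the times overlapped and only the paired fit called it (log2 fold change 0.58 ± 0.12 (SE), edgeR adjusted p = 0.0246 with the block and 0.7797 without).

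Gibberellin genes were called in both directions. Of 16 tested, 2 were called higher and 3 lower (31.25% beside 9.84% of all genes). Both called higher come from the tables of NF-responding genes. Of the 9 members annotated elsewhere, 0 were called higher and 3 lower. Those for ent-kaurenoic acid oxidase, an enzyme of synthesis, rose. Medtr2g031930 had 1.45 and 1.66 CPM at 4 h, 11.8 and 6.24 CPM at 20 h and 0.592 CPM in the control (log2 fold change 2.48 ± 0.27 (SE), edgeR adjusted p = 0.00188 with the block and 0.0955 without). GA3 (Medtr2g105360) had 35.8 and 24.1 CPM at 4 h, 89.7 and 67.8 CPM at 20 h and 13.5 CPM in the control (log2 fold change 1.41 ± 0.10 (SE), edgeR adjusted p = 0.000521 with the block and 0.118 without). Those that fell include Medtr1g086550, a gibberellin 2-oxidase that inactivates the hormone, with 66.9 and 60.4 CPM at 4 h, 45.1 and 40.5 CPM at 20 h and 8.27 CPM in the control. Its 20 h values were under the 4 h values and still above the control (log2 fold change -0.57 ± 0.09 (SE), edgeR adjusted p = 0.006597 with the block and 0.158 without). Another inactivating enzyme, Medtr3g108520, fell from 75.9 and 82.3 CPM at 4 h to 51.5 and 59.3 CPM at 20 h (edgeR adjusted p = 0.00998 with the block and 0.204 without), and the gibberellin 20-oxidase Medtr8g093930, of synthesis, from 6.505 and 5.94 CPM at 4 h to 2.79 and 3.97 CPM at 20 h (edgeR adjusted p = 0.03505 with the block and 0.241 without).

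Auxin genes were called in both directions, 5 higher and 8 lower of 36 tested, with a median of 0.08. Outside the tables of NF-responding genes 2 of 21 auxin genes were called higher and 3 lower. Medtr1g074070, annotated as auxin-induced 5NG4-like, had 123 and 172 CPM at 4 h, 265 and 387 CPM at 20 h and 193 CPM in the control (log2 fold change 1.14 ± 0.09 (SE), edgeR adjusted p = 0.0006301 with the block and 0.169 without). Medtr8g020610, an auxin-binding protein ABP19a gene, had 0.623 and 0.434 CPM at 4 h, 1.86 and 2.22 CPM at 20 h and 6.51 CPM in the control, under the control at both times and less so at 20 h (log2 fold change 1.94 ± 0.32 (SE), edgeR adjusted p = 0.00861 with the block and 0.109 without). It passed the limit of 1 CPM only through 20 h, so its NF times had to differ. The auxin response factor Medtr5g067350 had 27.6 and 20.2 CPM at 4 h, 12.96 and 11.8 CPM at 20 h and 4.39 CPM in the control, above the control at both times and lower at 20 h (log2 fold change -0.93 ± 0.13 (SE), edgeR adjusted p = 0.00462 with the block and 0.148 without). Another response factor, Medtr1g094960, rose from 18.9 and 14.6 CPM at 4 h to 34.9 and 24.3 CPM at 20 h (log2 fold change 0.81 ± 0.11 (SE), edgeR adjusted p = 0.00444 with the block and 0.249 without). Thus 1 response factor fell and another rose. IAA30 (Medtr1g085750), a repressor of auxin response, fell from 2.47 and 3.29 CPM at 4 h to 1.501 and 1.31 CPM at 20 h (edgeR adjusted p = 0.0464 with the block and 0.2295 without). A SAUR-like gene, Medtr2g066830, fell from 8.49 and 5.61 CPM at 4 h to 4.15 and 3.26 CPM at 20 h (edgeR adjusted p = 0.0146 with the block and 0.271 without). A further 5NG4-like gene, Medtr1g074120, rose from 4.11 and 0.765 CPM at 4 h to 7.601 and 6.55 CPM at 20 h (edgeR adjusted p = 0.0399 with the block and 0.524 without). Its namesake Medtr4g094340 went the other way with overlapping times, at 5.24 and 10.3 CPM at 4 h, against 1.26 and 5.26 CPM at 20 h (edgeR adjusted p = 0.0129 with the block and 0.642 without).

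Ethylene genes numbered 31 tested, with 5 called higher and 7 lower and a median of -0.18. Leaving out members from the tables of NF-responding genes, 1 of 20 was called higher and 4 lower. Medtr3g090760, annotated as an ethylene response factor and named a cytokinin response factor, had 1.36 and 0.689 CPM at 4 h, 6.98 and 4.82 CPM at 20 h and 1.18 CPM in the control and rose most of these (log2 fold change 2.55 ± 0.23 (SE), edgeR adjusted p = 0.000938 with the block and 0.106 without). An AP2-like factor, Medtr5g031880, had 6.21 and 5.0001 CPM at 4 h, against 13.2 and 13.8 CPM at 20 h (log2 fold change 1.28 ± 0.15 (SE), edgeR adjusted p = 0.00262 with the block and 0.0905 without). The ethylene response factors Medtr2g015050 and Medtr4g100380 fell. Medtr2g015050 had 5.26 and 9.16 CPM at 4 h, against 2.31 and 4.14 CPM at 20 h (log2 fold change -1.16 ± 0.17 (SE), edgeR adjusted p = 0.00537 with the block and 0.354 without). Medtr4g100380 had 44.2 and 64.5 CPM at 4 h, against 27.1 and 34.3 CPM at 20 h (log2 fold change -0.81 ± 0.10 (SE), edgeR adjusted p = 0.00257 with the block and 0.237 without). Replicate 2 was above replicate 1 for both falling genes at each time. Genes for 1-aminocyclopropane-1-carboxylate oxidase-like proteins, of the family that forms ethylene, were called in both directions. Medtr1g044105 rose from 2.45 and 1.58 CPM at 4 h to 4.12 and 4.04 CPM at 20 h (edgeR adjusted p = 0.0302 with the block and 0.242 without). Medtr2g069210 fell from 4.27 and 3.27 CPM at 4 h to 2.07 and 1.99 CPM at 20 h (edgeR adjusted p = 0.0422 with the block and 0.237 without).

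The study also chose several of these transcripts for RT-qPCR, a measurement not analysed here. Its primer table covers 31 genes of this comparison, of which 14 were called, where 9.84% of all genes were. These include a38 and a39, against which the study normalized. The genes set against RNA-seq were selected by the study to show differing responses to NF, so the count is not that of an unselected set. The primers are shown for 4 of the called genes, RMS1 that rose and NSP1, Medtr2g035190 and MtRbohG that fell, because they fix the stretch of each transcript that RT-qPCR reads. All are written 5′ to 3′, without capitals since no part of them is singled out.
RMS1 forward: tattcactctgcacatccca
RMS1 reverse: cgtccaataaccttcctctc
NSP1 forward: cacccttcacatccttgaca
NSP1 reverse: taaggcgaacaagaggagga
Medtr2g035190 forward: atattgttgctgggtctgatgg
Medtr2g035190 reverse: ccttagtctcctcacgtactg
MtRbohG forward: gtgatggatgaaatcgcaga
MtRbohG reverse: tggcatgatgaagtgattga

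Pathogenesis-related and other defence genes were called lower more often than higher. Of 51 listed 44 reached 1 CPM, of which 18 were called lower and 5 higher, with a median log2 fold change of -0.36. Of the 36 members not from the tables of NF-responding genes 17 were called lower and 2 higher. The summed level was 29376 and 31466 CPM at 4 h, 21169 and 25532 CPM at 20 h and 34209.7 CPM in the control. Both NF 20 h sums lay under the other sums. At 4 h, 16 of the 18 genes called lower were within 2-fold of the control, and 10 of these 16 were below it at 20 h.

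The class IV chitinase gene Medtr2g099470 had 39.2 and 58.8 CPM at 4 h, 12.99 and 13.4 CPM at 20 h and 77.8 CPM in the control. Its level was under the control at 4 h and lower still at 20 h, where the replicates were close (log2 fold change -1.87 ± 0.14 (SE), edgeR adjusted p = 0.000614 with the block and 0.0797 without). The PR-4 type gene Medtr1g080800 had 26.7 and 42.8 CPM at 4 h, 8.77 and 15.96 CPM at 20 h and 47.2 CPM in the control (log2 fold change -1.51 ± 0.11 (SE), edgeR adjusted p = 0.000614 with the block and 0.194 without). A further chitinase gene, Medtr1g099310, had 293 and 227 CPM at 4 h, 87.04 and 105 CPM at 20 h and 447 CPM in the control (log2 fold change -1.43 ± 0.15 (SE), edgeR adjusted p = 0.00155 with the block and 0.0885 without). The order was the same in all 3, control above NF 4 h above NF 20 h. The cysteine-rich secretory protein gene Medtr2g435490 had 3.81 and 7.78 CPM at 4 h, against 1.001 and 2.88 CPM at 20 h (log2 fold change -1.64 ± 0.21 (SE), edgeR adjusted p = 0.00364 with the block and 0.398 without).

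A few defence genes rose instead. The gene for the defensin-related protein Medtr8g012795 had 421 and 255 CPM at 4 h, 676 and 564 CPM at 20 h and 6.87 CPM in the control. All NF values stood far above the control, and the NF 20 h values were highest (log2 fold change 0.91 ± 0.13 (SE), edgeR adjusted p = 0.004602 with the block and 0.299 without). Its neighbour by number, Medtr8g012800, had 1.499 and 1.199 CPM at 4 h, 4.77 and 4.04 CPM at 20 h and 0.0658 CPM in the control (log2 fold change 1.71 ± 0.22 (SE), edgeR adjusted p = 0.00318 with the block and 0.0955 without). Neither defensin-related gene overlapped between the times. Of the bet V I family, Medtr1g030810 rose from 514 and 546 CPM at 4 h to 1042 and 1011 CPM at 20 h (edgeR adjusted p = 0.00175 with the block and 0.0997 without). Medtr3g055120 rose from 181 and 151 CPM at 4 h to 274 and 379 CPM at 20 h (edgeR adjusted p = 0.00897 with the block and 0.152 without).

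Receptor-like kinases were mostly lower where called. Of 170 tested, 51 were called lower and 10 higher, with a median of -0.26, and 98 of the 170 come from the tables of NF-responding genes. Without these, 14 of 72 were called lower and 1 higher. The largest decreases were those of weakly expressed genes. Medtr6g083780 had 2.54 and 3.62 CPM at 4 h, 1.24 and 1.06 CPM at 20 h and 3.58 CPM in the control (log2 fold change -1.41 ± 0.27 (SE), edgeR adjusted p = 0.0169 with the block and 0.1504 without). The LRR kinase Medtr3g048440 had 2.28 and 3.34 CPM at 4 h, 0.953 and 1.16 CPM at 20 h and 4.23 CPM in the control (log2 fold change -1.40 ± 0.25 (SE), edgeR adjusted p = 0.0123 with the block and 0.166 without). The wall associated kinase Medtr2g009670 and the S-locus lectin kinase Medtr5g006160 fell with log2 fold changes of -1.19 and -1.11. Among the increases was that of the LRR kinase Medtr1g088930, with 6.69 and 2.83 CPM at 4 h, 17.1 and 10.3 CPM at 20 h and 0.0658 CPM in the control (log2 fold change 1.58 ± 0.17 (SE), edgeR adjusted p = 0.00175 with the block and 0.288 without). Medtr5g086090, a LysM receptor kinase of type K1B, also rose, from 5.84 and 3.37 CPM at 4 h to 9.91 and 7.95 CPM at 20 h (log2 fold change 0.99 ± 0.18 (SE), edgeR adjusted p = 0.0116 with the block and 0.317 without).

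WRKY factors, which act in defence and stress responses, had 10 members called lower and 2 higher of 37 tested, with a median of -0.12. Of the 32 annotated elsewhere than in the tables of NF-responding genes, 1 was called higher and 6 lower. Medtr3g106060 had 7.34 and 10.2 CPM at 4 h, 2.86 and 1.99 CPM at 20 h and 7.17 CPM in the control (log2 fold change -1.85 ± 0.25 (SE), edgeR adjusted p = 0.00406 with the block and 0.101 without). WRKY30-like (Medtr3g090860) had 1.57 and 2.14 CPM at 4 h, 0.524 and 0.5497 CPM at 20 h and 1.73 CPM in the control (log2 fold change -1.78 ± 0.30 (SE), edgeR adjusted p = 0.00938 with the block and 0.119 without). Both were near the control at 4 h and below it at 20 h. WRKY53 (Medtr8g099350) fell from 4.198 and 5.59 CPM at 4 h to 2.24 and 2.71 CPM at 20 h (edgeR adjusted p = 0.0181 with the block and 0.214 without), and Medtr4g013260 from 2.81 and 3.27 CPM at 4 h to 0.953 and 1.04 CPM at 20 h (edgeR adjusted p = 0.00635 with the block and 0.106 without). WRKY30-like and Medtr4g013260 had a mean under 1 CPM at 20 h, passed the limit only through 4 h and thus had to differ. Medtr7g073430 rose from 1.61 and 2.14 CPM at 4 h to 5.41 and 3.81 CPM at 20 h (edgeR adjusted p = 0.0212 with the block and 0.168 without).

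NBS-LRR genes, of the family of intracellular immune receptors, had 13 called lower and 4 higher of 87 tested (19.5% beside 9.84% of all genes). Their median was -0.09. Among the 50 members from other tables than those of NF-responding genes, 1 was called higher and 5 lower. This is close to the 14.6% called among all genes annotated in such other tables. The increase of Medtr4g080060 was the largest, with 2.54 and 2.68 CPM at 4 h, 10.1 and 9.89 CPM at 20 h and 0.877 CPM in the control (log2 fold change 1.94 ± 0.16 (SE), edgeR adjusted p = 0.000863 with the block and 0.0681 without). Medtr0391s0020 rose from 11.6 and 7.07 CPM at 4 h to 22.6 and 19.3 CPM at 20 h (log2 fold change 1.19 ± 0.15 (SE), edgeR adjusted p = 0.00318 with the block and 0.173 without). The times did not overlap for either gene. Of those that fell, Medtr2g044830 had 5.07 and 7.81 CPM at 4 h, against 2.36 and 3.51 CPM at 20 h (log2 fold change -1.13 ± 0.18 (SE), edgeR adjusted p = 0.00687 with the block and 0.249 without).

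Proteinase inhibitors had 10 members called lower and 5 higher of 27 tested, while the median over the 27 was above 0, at 0.16. Of the 23 members not from the tables of NF-responding genes, 5 were called higher and 6 lower. Medtr1g075340, an inhibitor of trypsin and hageman factor-like protein and the most changed, had 560.4 and 619.9 CPM at 4 h, 126 and 237 CPM at 20 h and 464 CPM in the control (log2 fold change -1.77 ± 0.17 (SE), edgeR adjusted p = 0.00133 with the block and 0.1298 without). The Kunitz type genes Medtr6g044810 and Medtr6g045097 were near 0 in the control. Medtr6g044810 had 7.105 and 3.21 CPM at 4 h, 1.64 and 1.61 CPM at 20 h and 0.285 CPM in the control (log2 fold change -1.57 ± 0.29 (SE), edgeR adjusted p = 0.0132 with the block and 0.209 without). Medtr6g045097 had 5.19 and 3.801 CPM at 4 h, 2.17 and 0.972 CPM at 20 h and 0 CPM in the control (log2 fold change -1.58 ± 0.25 (SE), edgeR adjusted p = 0.00701 with the block and 0.246 without). Both were highest at 4 h and nearer the control at 20 h. The largest increase was that of the Bowman birk gene Medtr7g077210, with 11.8 and 10.8 CPM at 4 h, against 21.2 and 18.2 CPM at 20 h (log2 fold change 0.80 ± 0.12 (SE), edgeR adjusted p = 0.006095 with the block and 0.132 without).

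Genes for cell wall enzymes and proteins were called in similar numbers each way, 17 higher and 18 lower of 68 tested, with a median of 0.09. Without the tables of NF-responding genes the calls were 7 higher and 8 lower of 40. The largest changes were increases. Expansin A10 (Medtr5g079950), of a family that loosens walls, had 0.346 and 0.102 CPM at 4 h, 4.86 and 3.64 CPM at 20 h and 0.241 CPM in the control. Its control and NF 4 h values were all low, and both NF 20 h values stood far above them (log2 fold change 4.25 ± 0.35 (SE), edgeR adjusted p = 0.000771 with the block and 0.0864 without). The pectinesterase gene Medtr6g042660 had 0.5997 and 0.383 CPM at 4 h, 7.51 and 7.04 CPM at 20 h and 0.197 CPM in the control and was called in both fits (log2 fold change 3.88 ± 0.25 (SE), edgeR adjusted p = 0.000397 with the block and 0.0474 without). This gene and expansin A10 had a mean under 1 CPM at 4 h, passed the limit only through 20 h and thus had to differ. A further pectinesterase gene, Medtr4g087980, had 31.9 and 15.1 CPM at 4 h, 147 and 98.9 CPM at 20 h and 1.07 CPM in the control, lowest in the control and highest at 20 h (log2 fold change 2.45 ± 0.13 (SE), edgeR adjusted p = 0.000227 with the block and 0.10995 without).

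A xyloglucan galactosyltransferase gene, Medtr3g084400, had 0.277 and 0.204 CPM at 4 h, 3.12 and 1.71 CPM at 20 h and 0.0219 CPM in the control (log2 fold change 3.30 ± 0.33 (SE), edgeR adjusted p = 0.00144 with the block and 0.0905 without). Its mean at 4 h was under 1 CPM as well, so it too had to differ. The pectate lyase-like gene Medtr7g059290 had 4.18 and 2.09 CPM at 4 h, 13.7 and 11.7 CPM at 20 h and 9.76 CPM in the control, lowest at 4 h (log2 fold change 2.07 ± 0.21 (SE), edgeR adjusted p = 0.00139 with the block and 0.114 without). Among genes that fell, those for inhibitors of wall enzymes were among the most changed. The polygalacturonase inhibitor gene Medtr7g023690 had 98.2 and 179 CPM at 4 h, 41.8 and 58.5 CPM at 20 h and 251 CPM in the control (log2 fold change -1.43 ± 0.11 (SE), edgeR adjusted p = 0.0006301 with the block and 0.168 without). The gene Medtr1g072380, for an inhibitor of xyloglucanase, had 6.41 and 11.4 CPM at 4 h, 2.67 and 3.404 CPM at 20 h and 12.1 CPM in the control (log2 fold change -1.52 ± 0.19 (SE), edgeR adjusted p = 0.00275 with the block and 0.156 without). The control value exceeded every NF value in both, and replicate 2 was above replicate 1 at each time. Medtr1g085070, a pectin acetylesterase gene, peaked at 4 h, with 9.09 and 4.44 CPM at 4 h, 2.57 and 2.37 CPM at 20 h and 2.39 CPM in the control (log2 fold change -1.38 ± 0.24 (SE), edgeR adjusted p = 0.0116 with the block and 0.223 without).

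Phenylpropanoid and flavonoid genes had 13 members called higher and 17 lower of 82 tested, with a median of 0.04. Among the 57 annotated outside the tables of NF-responding genes, 4 were called higher and 10 lower. The flavonoid hydroxylase gene Medtr4g109470 had 0.346 and 0.0765 CPM at 4 h, 3.03 and 3.42 CPM at 20 h and 0.0219 CPM in the control, clearly above the floor of 3 counts only at 20 h and in NF 4 h replicate 1 (log2 fold change 3.91 ± 0.46 (SE), edgeR adjusted p = 0.00234 with the block and 0.0955 without). It passed the limit of 1 CPM only through 20 h, so it had to differ. A caffeic acid O-methyltransferase gene, Medtr3g021440, ran lowest in the control and highest at 20 h, with 8.93 and 5.59 CPM at 4 h, 17.6 and 17.6 CPM at 20 h and 0.965 CPM in the control (log2 fold change 1.31 ± 0.18 (SE), edgeR adjusted p = 0.00421 with the block and 0.135 without). Medtr5g098720, a gene like phenylalanine ammonia-lyase, which opens the pathway, had 20.1 and 17.4 CPM at 4 h, against 44.9 and 31.6 CPM at 20 h (log2 fold change 1.01 ± 0.11 (SE), edgeR adjusted p = 0.00211 with the block and 0.141 without). The increases thus include a gene that was low in the control and one at the start of the pathway. In the other direction, the flavonol synthase gene Medtr5g059140 had 16.6 and 19.4 CPM at 4 h, 4.41 and 7.505 CPM at 20 h and 21.01 CPM in the control (log2 fold change -1.63 ± 0.16 (SE), edgeR adjusted p = 0.00142 with the block and 0.119 without). The caffeoyl-CoA O-methyltransferase gene Medtr6g091680, of lignin synthesis, had 82.6 and 104 CPM at 4 h, 45.4 and 40.3 CPM at 20 h and 162 CPM in the control (log2 fold change -1.12 ± 0.13 (SE), edgeR adjusted p = 0.00216 with the block and 0.0937 without).

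Nutrition transporters came down more often than they rose. Of 168 listed 62 reached 1 CPM, with a median of -0.01. Of these 62, 15 were called lower and 7 higher (35.5% beside 9.84% of all genes). This list is that of whole families and was not chosen by response. MtPT1 (Medtr1g043220), a phosphate transporter of the PHT1 family, had 55.7 and 59.4 CPM at 4 h, 18.3 and 16.95 CPM at 20 h and 39.5 CPM in the control. The replicates were close, the level was above the control at 4 h and below it at 20 h, and the gene was called in both fits (log2 fold change -1.71 ± 0.10 (SE), edgeR adjusted p = 0.000304 with the block and 0.0427 without). MtPT6 (Medtr3g082700) had 48.5 and 62.02 CPM at 4 h, 33.1 and 37.4 CPM at 20 h and 109.9 CPM in the control, under the control at 4 h and further under it at 20 h (log2 fold change -0.64 ± 0.09 (SE), edgeR adjusted p = 0.00575 with the block and 0.205 without). MtPT9 (Medtr4g083960) rose from 52.1 and 49.8 CPM at 4 h to 70.6 and 66.2 CPM at 20 h (log2 fold change 0.42 ± 0.09 (SE), edgeR adjusted p = 0.0219 with the block and 0.224 without). Members of PHT1 lie in clusters of near-identical copies, so their single levels are uncertain.

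In the NRT2 and NRT3 families of high affinity nitrate uptake, with 3 tested members each, 2 were called lower in each and 0 higher. These 4 genes were above the control at 4 h and lower again at 20 h. The remaining member of each family was not called. In that of NRT3, both NF 20 h libraries lay above both NF 4 h libraries. MtNRT2.1 (Medtr4g057890) had 143 and 119 CPM at 4 h, 76.3 and 78.1 CPM at 20 h and 34.9 CPM in the control. Its level was highest at 4 h and, at 20 h, still above the control (log2 fold change -0.76 ± 0.10 (SE), edgeR adjusted p = 0.00402 with the block and 0.122 without). MtNRT2.2 (Medtr4g057865) had 123 and 90.4 CPM at 4 h, 68.6 and 51.4 CPM at 20 h and 31.3 CPM in the control (log2 fold change -0.83 ± 0.09 (SE), edgeR adjusted p = 0.00164 with the block and 0.224 without). The genes for their partner proteins, MtNAR2.1 (Medtr4g104730) and MtNAR2.2 (Medtr4g104700), went the same way. MtNAR2.1 had 478 and 387 CPM at 4 h, 282 and 270.3 CPM at 20 h and 152 CPM in the control (log2 fold change -0.64 ± 0.10 (SE), edgeR adjusted p = 0.00748 with the block and 0.199 without). MtNAR2.2 had 32.6 and 34.1 CPM at 4 h, 18.3 and 23.001 CPM at 20 h and 7.24 CPM in the control (log2 fold change -0.70 ± 0.11 (SE), edgeR adjusted p = 0.00803 with the block and 0.166 without). In all 4 genes the NF 20 h libraries lay between the NF 4 h libraries and the control. The members of each pair are close copies that may have lost shared pairs.

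Ammonium transporters had 2 members called lower and 0 higher of 4 tested (50% beside 9.84% of all genes), and 1 of the 4 had an estimate above 0. Both called genes fell from 4 h levels under the control. MtAMT1;1 (Medtr1g045550) had 213 and 231 CPM at 4 h, 134 and 138 CPM at 20 h and 277 CPM in the control (log2 fold change -0.71 ± 0.09 (SE), edgeR adjusted p = 0.00294 with the block and 0.114 without). MtAMT2;1 (Medtr7g069640) had 21.8 and 20.1 CPM at 4 h, 15.4 and 13.4 CPM at 20 h and 23.01 CPM in the control (log2 fold change -0.54 ± 0.12 (SE), edgeR adjusted p = 0.0259 with the block and 0.231 without). In the NPF family of nitrate and peptide transporters 25 of 79 members were tested, with 4 called higher and 6 lower. MtNPF5.19 (Medtr3g069500) had 2.91 and 0.663 CPM at 4 h, 15.8 and 2.11 CPM at 20 h and 1.16 CPM in the control. Its NF 20 h replicate 1 was far above the rest and replicate 2 was under NF 4 h replicate 1, so the times overlapped and the call depends on the pairing (log2 fold change 2.18 ± 0.23 (SE), edgeR adjusted p = 0.00172 with the block and 0.537 without). MtNPF6.5 (Medtr4g101380) rose from 18.4 and 21.7 CPM at 4 h to 47.1 and 28.8 CPM at 20 h (edgeR adjusted p = 0.0316 with the block and 0.246 without). Its times did not overlap, though replicate 1 at 20 h exceeded replicate 2 by far. MtNPF5.10 (Medtr7g098200) and MtNPF1.5 (Medtr2g101590) fell from 3.53 and 3.47 CPM at 4 h to 1.19 and 1.97 CPM at 20 h (edgeR adjusted p = 0.0285 with the block and 0.233 without) and from 19.3 and 17.2 CPM at 4 h to 12.4 and 6.74 CPM at 20 h (edgeR adjusted p = 0.0128 with the block and 0.3199 without).

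The HKT family had a single tested member, Medtr6g092840, of a family that carries sodium and potassium. It had 1.87 and 2.22 CPM at 4 h, 12.9 and 9.41 CPM at 20 h and 4.96 CPM in the control, below the control at 4 h and above it at 20 h (log2 fold change 2.44 ± 0.21 (SE), edgeR adjusted p = 0.000892 with the block and 0.0774 without). The HAK/KUP potassium transporters had 1 member called each way of 12 tested, namely Medtr4g099260 at 513 and 562 CPM at 4 h, against 967 and 729 CPM at 20 h (edgeR adjusted p = 0.0259 with the block and 0.261 without) and Medtr2g438150 at 165 and 143 CPM at 4 h, against 129.8 and 110.3 CPM at 20 h (edgeR adjusted p = 0.0376 with the block and 0.454 without). In the PHO1, SULTR and Shaker families, with 2, 4 and 3 tested members, edgeR with library size scaling called none with the block or without it and DESeq2 none with the block, while 1, 0 and 1 had an unadjusted p under 0.05 in edgeR's paired fit. Other settings of the paired edgeR fit called the Shaker gene Medtr4g113530 higher (DESeq2 size factors) and the SULTR genes Medtr2g102243 and Medtr3g073730, both under the limit of 1 CPM, higher (filterByExpr).

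Families of ion channels, pumps and annexins had 5 members called higher and 4 lower of 61 tested (14.8% beside 9.84% of all genes). Their median was -0.02. Besides MtAnn1 and MtAHA1, given above, the malate channel gene Medtr7g094770 of the ALMT family had 0.484 and 0.357 CPM at 4 h, 3.69 and 1.88 CPM at 20 h and 0.0219 CPM in the control. It was near 0 in the control and highest in NF 20 h replicate 1 (log2 fold change 2.69 ± 0.30 (SE), edgeR adjusted p = 0.00211 with the block and 0.109 without). With a mean under 1 CPM at 4 h, this gene passed the limit only through 20 h and had to differ. Another ALMT gene, Medtr1g115190, had 30.6 and 23.6 CPM at 4 h, 42.8 and 40.3 CPM at 20 h and 21.7 CPM in the control (log2 fold change 0.63 ± 0.11 (SE), edgeR adjusted p = 0.0101 with the block and 0.224 without). The SLAC type anion channel gene Medtr6g034030 had 75.8 and 81.1 CPM at 4 h, 43.1 and 41.9 CPM at 20 h and 64.6 CPM in the control (log2 fold change -0.88 ± 0.09 (SE), edgeR adjusted p = 0.00158 with the block and 0.0885 without). Its values were above the control at 4 h and below it at 20 h.

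The glutamate receptor gene Medtr5g059920 fell from 28.9 and 35.03 CPM at 4 h to 21.3 and 20.5 CPM at 20 h (edgeR adjusted p = 0.0174 with the block and 0.181 without). Of the cyclic nucleotide-gated channels, Medtr7g117310 fell from 90.8 and 89.9 CPM at 4 h to 71.5 and 64.4 CPM at 20 h (edgeR adjusted p = 0.0271 with the block and 0.249 without). Medtr2g094860 was called higher, at 24.7 and 40.2 CPM at 4 h, against 37.8 and 56.8 CPM at 20 h, with the times overlapping (edgeR adjusted p = 0.00901 with the block and 0.639 without). The OSCA gene Medtr5g027510 was called higher with overlap as well, at 20.6 and 14.3 CPM at 4 h, against 27.3 and 19.9 CPM at 20 h (edgeR adjusted p = 0.0497 with the block and 0.655 without). In the MCA, MSL and PIEZO families, with 1, 6 and 2 tested members, edgeR called none with the block or without it and DESeq2 none with the block, while 0, 0 and 1 had an unadjusted p under 0.05 in edgeR's paired fit.

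Among genes for reactive oxygen, class III peroxidases had 6 members called higher and 8 lower of 49 tested (28.6% beside 9.84% of all genes), of 130 listed. MtPrx04 (Medtr7g107520) had 19.2 and 19.8 CPM at 4 h, 70.3 and 63.7 CPM at 20 h and 10.2 CPM in the control. The order was control below NF 4 h below NF 20 h with close replicates, and the gene was called in both fits (log2 fold change 1.78 ± 0.10 (SE), edgeR adjusted p = 0.000227 with the block and 0.0427 without). MtPrx56 (Medtr1g066380) had 258 and 200.3 CPM at 4 h, 125 and 128 CPM at 20 h and 90.7 CPM in the control, highest at 4 h and nearer the control at 20 h (log2 fold change -0.85 ± 0.11 (SE), edgeR adjusted p = 0.004003 with the block and 0.132 without). MtPrx33 (Medtr7g072480) and MtPrx[P]119 (Medtr7g072490), of adjoining numbers, fell from different levels. MtPrx33 had 122 and 197 CPM at 4 h, 79.9 and 92.7 CPM at 20 h and 227 CPM in the control (log2 fold change -0.85 ± 0.12 (SE), edgeR adjusted p = 0.005199 with the block and 0.247 without). MtPrx[P]119 had 4.87 and 12.5 CPM at 4 h, 2.24 and 3.42 CPM at 20 h and 9.61 CPM in the control (log2 fold change -1.53 ± 0.22 (SE), edgeR adjusted p = 0.00491 with the block and 0.298 without).

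Of 9 tested NADPH oxidases, which make superoxide outside the cell, 1 was called (11.1% beside 9.84% of all genes). This was MtRbohG (Medtr7g113130), with 133 and 145 CPM at 4 h, 90.9 and 78.3 CPM at 20 h and 159 CPM in the control. It was lower at 20 h than at 4 h and in the control (log2 fold change -0.72 ± 0.11 (SE), edgeR adjusted p = 0.00558 with the block and 0.1297 without). Antioxidant enzymes had 1 member called higher and 1 lower of 28 tested (7.14% beside 9.84% of all genes). These were a Cu-Zn superoxide dismutase gene (Medtr4g057240, log2 fold change 0.52) and a monodehydroascorbate reductase gene (Medtr8g098910, -0.41). Thioredoxins had 2 members called higher of 36 tested (5.56%, again under the 9.84% of all genes). Medtr7g100540 had 0.8304 and 0.842 CPM at 4 h, 3.76 and 3.002 CPM at 20 h and 0.1097 CPM in the control (log2 fold change 2.01 ± 0.25 (SE), edgeR adjusted p = 0.00318 with the block and 0.0905 without). It passed the limit of 1 CPM only through 20 h, so it had to differ. Medtr7g080250 had 3.25 and 3.39 CPM at 4 h, 7.93 and 8.18 CPM at 20 h and 2.24 CPM in the control (log2 fold change 1.28 ± 0.16 (SE), edgeR adjusted p = 0.00333 with the block and 0.0905 without). Of 24 glutaredoxins tested edgeR called 0 with the block or without it and DESeq2 called 0 with the block, while 3 had an unadjusted p under 0.05 in edgeR's paired fit.

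Genes of the cytoskeleton and of secretion, which carry wall material to the growing hair, were called about as often as all genes tested. Of 68 tested, 6 were called lower and 1 higher (10.3% beside 9.84% of all genes), with a median of -0.04. Without the tables of NF-responding genes 2 of 53 were called lower and 0 higher. MtTubb1 (Medtr8g107250), a tubulin, had 398 and 310.4 CPM at 4 h, 207 and 217 CPM at 20 h and 54.7 CPM in the control. Its level stood far above the control at both times and was lower at 20 h (log2 fold change -0.73 ± 0.12 (SE), edgeR adjusted p = 0.00844 with the block and 0.168 without). The exo70 genes Medtr1g067480 and Medtr4g062330 encode subunits of the exocyst, which tethers vesicles to the membrane. Medtr1g067480 had 31.2 and 31.3 CPM at 4 h, 17.4 and 13.6 CPM at 20 h and 32.7 CPM in the control (log2 fold change -1.02 ± 0.13 (SE), edgeR adjusted p = 0.00294 with the block and 0.106 without). Medtr4g062330 had 47.2 and 41.1 CPM at 4 h, 27.8 and 23.5 CPM at 20 h and 38.4 CPM in the control (log2 fold change -0.78 ± 0.09 (SE), edgeR adjusted p = 0.00262 with the block and 0.129 without). Both were below the control at 20 h in each replicate. An actin cross-linking protein gene, Medtr5g037540, fell from 26.2 and 26.02 CPM at 4 h to 13.7 and 15.3 CPM at 20 h (edgeR adjusted p = 0.00438 with the block and 0.103 without). The member that rose was the tubulin beta-1 chain gene Medtr4g017630, from 64.6 and 68.6 CPM at 4 h to 88.6 and 85.6 CPM at 20 h (edgeR adjusted p = 0.0348 with the block and 0.253 without).

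Of 24 tested genes for heat shock proteins and their transcription factors 2 were called lower and 0 higher (8.33% beside 9.84% of all genes). Both come from the tables of NF-responding genes and are transcription factors, and 0 of the 16 other members were called. Medtr7g091370 had 15.2 and 21.7 CPM at 4 h, 6.6004 and 9.47 CPM at 20 h and 23.2 CPM in the control (log2 fold change -1.20 ± 0.13 (SE), edgeR adjusted p = 0.00163 with the block and 0.164 without). Medtr5g010680, of type B2A, fell from 10.5 and 13.9 CPM at 4 h to 7.55 and 8.37 CPM at 20 h (edgeR adjusted p = 0.0348 with the block and 0.313 without). In each the replicate 2 value was above that of replicate 1 at the same time.

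Among the orthologs of Arabidopsis root hair genes, a list made without regard to response, 85 of 1111 tested were called lower and 41 higher (11.3% called beside 9.84% of all genes), with a median of -0.04. The late embryogenesis abundant protein gene Medtr7g108735 had 8.56 and 7.93 CPM at 4 h, 43.4 and 31.1 CPM at 20 h and 4.32 CPM in the control. Its NF 4 h values were close to each other and far under both NF 20 h values (log2 fold change 2.16 ± 0.13 (SE), edgeR adjusted p = 0.000347 with the block and 0.0681 without). A laccase gene, Medtr4g019225, fell from 1.41 and 2.12 CPM at 4 h to 0.691 and 0.233 CPM at 20 h (edgeR adjusted p = 0.04198 with the block and 0.249 without). It passed the limit of 1 CPM only through 4 h, so it had to differ. The serine carboxypeptidase-like gene Medtr2g095750 had 9.09 and 1.51 CPM at 4 h, 2.48 and 0.423 CPM at 20 h and 13.6 CPM in the control. Replicates of this gene differed more than the times did, NF 20 h replicate 1 lay above NF 4 h replicate 2, and the call depends on the pairing (log2 fold change -1.86 ± 0.22 (SE), edgeR adjusted p = 0.00249 with the block and 0.656 without).

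Of the legume-specific genes 1006 were tested, with 52 called higher and 72 lower and a median of 0.02. The share called was 12.3%, near the 9.84% of all genes. Medtr6g078770, annotated as a transmembrane protein, had 13.1 and 7.73 CPM at 4 h, 67.2 and 54.5 CPM at 20 h and 3.904 CPM in the control. The order was control below NF 4 h below NF 20 h, and the times lay far apart (log2 fold change 2.58 ± 0.13 (SE), edgeR adjusted p = 0.000227 with the block and 0.0797 without). Medtr5g006600, annotated as an RNA-directed DNA methylation protein, had 2.63 and 2.27 CPM at 4 h, 9.75 and 8.604 CPM at 20 h and 1.49 CPM in the control (log2 fold change 1.90 ± 0.17 (SE), edgeR adjusted p = 0.0009302 with the block and 0.0797 without). The hypothetical protein gene Medtr4g082900 had 6.04 and 5.59 CPM at 4 h, 0.691 and 0.951 CPM at 20 h and 3.03 CPM in the control (log2 fold change -2.82 ± 0.24 (SE), edgeR adjusted p = 0.000892 with the block and 0.0681 without). A MADS-box factor gene, Medtr1g077300, had 3.88 and 5.03 CPM at 4 h, 0.715 and 1.01 CPM at 20 h and 4.58 CPM in the control (log2 fold change -2.36 ± 0.23 (SE), edgeR adjusted p = 0.00134 with the block and 0.0885 without). Both genes that fell ended below the control, the first from above it and the other from about its level. Their means at 20 h were under 1 CPM, so they passed the limit only through 4 h and had to differ.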

How the data were processed

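RNA of root hairs was sequenced as polyA libraries in paired reads. Per the study's methods, the authors trimmed the reads and aligned them locally to transcripts of the Mt4.0v1 genome release. The aligner was Bowtie2 2.0, per the submitters' processing notes. They deposited counts of pairs whose mates both matched the same transcript and no other. Near-identical copies therefore lose counts. The counts were divided by the library sum to give CPM.

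The main test was edgeR's quasi-likelihood test (edgeR 4.0.16, R 4.3.3) with time and replicate number as terms, library size scaling and Benjamini-Hochberg adjustment over 16979 genes, with 1 residual degree of freedom. The SE is the log2 fold change divided by the root of the F statistic. The same test without the replicate block, and DESeq2 1.42.0, served as alternatives. Lists and figures were computed in Python 3.11.15. The fit was tested on simulated data.

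The replicate numbers come from the labels, which do not say what a number shares. Across the 16979 genes, the difference of replicate 2 from replicate 1 at 4 h and at 20 h correlated with r = 0.606, a single coefficient over 2 pairs. Members and lists were chosen with earlier results of these data known. Genes named are the 8 largest changes each way among called genes without overlap, all genes called also without the block, up to 4 called members each way per list, and all listed symbiotic genes. Annotation comes from the study's supplementary tables, and that of expressed genes was held only in part. Counting intervals cover counting error only. Per the study's methods, the 2 libraries of a time are independent biological repeats, each from a pool of plants. Control replicate 1 was not analysed here.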

Additional observations from a re-analysis of the deposited data

How the results depend on the processing

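The calls rest on the replicate block. With it 1670 genes were called. With no replicate block edgeR called 11 of these genes, edgeR's exact test 798 of them and DESeq2 756 genes, of which 754 are among the 1670, while among the list members 568 were called with it and 3 without. With no filter on low counts 2604 genes were called. With the filter kept, 766 of the 1670 passed an adjusted p under 0.01, and 478 had a change of at least 2-fold besides an adjusted p under 0.05. Of the called genes 619 lay away from the control at either time at the 2-fold limit, 1074 at a 1.5-fold limit and 11 among genes called without the block. With a single library left out no paired fit could be made, the lone library of its time was taken to vary like the other pair, and between 1 and 68 genes were called. TMM (1957 genes), DESeq2 size factors (2222) and filterByExpr (1934) kept the direction and the call of all 185 called genes on the list of named genes, and DESeq2 with the block kept all directions and 157 calls.

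Signs turned for some genes named above when a replicate was left out. MtRR11 (Medtr8g038620) ranged from -0.024 without NF 20 h replicate 2 to 1.14 (log2 fold change) and is the only one of the named genes called with the block that turned. The others did not pass the test with all libraries. Their ranges were -0.10 to 0.37 for Medtr1g021630, -0.82 to 0.83 for Medtr1g056530 (MtNF-YA1), -0.22 to 0.12 for Medtr2g029750, -0.0047 to 0.14 for Medtr5g026850 and -0.17 to 0.12 for Medtr5g030920. They were -0.061 to 0.94 for Medtr5g074860, -0.12 to 0.35 for Medtr5g086130, -0.40 to 0.18 for Medtr6g027840, -0.33 to 0.23 for Medtr6g029180, -0.22 to 0.29 for Medtr7g106450 and -0.089 to 0.47 for Medtr8g085960. The cause was not tested. Depth sets a floor of between 0.0634 and 0.0765 CPM per library, below which a level could not be told from 0.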
